A study of Homo sapiens with 6 samples.

Results

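The 4 miRNAs hsa-miR-146a-5p, hsa-miR-146b-5p, hsa-miR-155-5p and hsa-miR-147b (hsa for human, left out hereafter), known to be induced by NF-kB or by inflammatory signals, were followed in small extracellular vesicles (EVs) of cancer spheroids. They were chosen by name from the 471 rows of the miRNA count table, and all 4 were present. Cal27, an oral squamous cell carcinoma line, was cultured as spheroids by liquid overlay. Growth factor reduced Matrigel at 3 mg/mL formed the soft matrix (EVsoft) and at 12 mg/mL the stiff matrix (EVstiff), so that stiffness and the amount of matrix protein cannot be told apart. Both groups were grown in medium with EV-depleted serum, and EVs were taken from the medium on day 14 by insulator-based dielectrophoresis. Each group had 3 libraries, from separate cell culture experiments per the study. The labels name no other difference between the groups. The miRNAs of the cells were not analysed here, and fewer vesicles with a miRNA and less of it per vesicle cannot be told apart.

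NF-kB is a family of transcription factors that inhibitor proteins hold in the cytoplasm until signals from Toll-like receptors, interleukin-1 or tumor necrosis factor release them. Among the genes they switch on are miRNA genes whose products dampen or tune the response. miR-146a is the classical feedback member and represses the adaptors IRAK1 and TRAF6, which sit between the receptors and NF-kB. miR-146b comes from a separate gene and shares its targeting sequence. miR-155 is made from a long noncoding transcript in activated immune cells and in many tumors, and represses SOCS1, an inhibitor of cytokine signaling. miR-147b is carried by the transcript of C15orf48, which rises after inflammatory stimulation.

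The mature sequences from RefSeq (GRCh38.p14) are shown because the contrast between the miR-146 paralogs turns on them. Capitals mark the seed, bases 2 to 8 counted from the 5′ end, which pairs with targets.
miR-146a-5p: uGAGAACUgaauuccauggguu
miR-146b-5p: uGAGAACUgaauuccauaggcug
miR-155-5p: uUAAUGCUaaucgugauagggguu
miR-147b: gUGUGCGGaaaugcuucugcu
miR-146a-5p and miR-146b-5p have the same seed and the same first 17 bases. They differ by the substitutions G18A and U21C (the base of miR-146a-5p first, positions from its 5′ end), and miR-146b-5p is 23 bases long against 22. A read that ended within the shared bases could belong to either, and how the counting treated such reads is not given in the sources used here. In RefSeq the miR-146 seed is also carried by miR-7153-5p, which was not in the count table. The seeds of miR-155-5p and miR-147b were shared by no other human mature miRNA in RefSeq. The sequence for miR-147b is the one RefSeq lists as miR-147b-3p, the only mature product it gives for this hairpin.

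The 4 hairpins lie on different chromosomes (GRCh38, GENCODE 44). That of miR-146a is at chr5:160485352-160485450 in an exon of the lncRNA MIR3142HG. That of miR-155 is at chr21:25573980-25574044 in an exon of the lncRNA MIR155HG. That of miR-147b is at chr15:45433050-45433129 in a UTR of C15orf48, and a lncRNA gene on the opposite strand spans the same bases. That of miR-146b is at chr10:102436512-102436584 and overlaps no annotated protein-coding or lncRNA gene. The promoter of MIR3142HG is shown because it holds a kappaB element, the DNA sequence that NF-kB binds (chr5:160468001-160468300, plus strand, RefSeq, element in capitals).
MIR3142HG promoter: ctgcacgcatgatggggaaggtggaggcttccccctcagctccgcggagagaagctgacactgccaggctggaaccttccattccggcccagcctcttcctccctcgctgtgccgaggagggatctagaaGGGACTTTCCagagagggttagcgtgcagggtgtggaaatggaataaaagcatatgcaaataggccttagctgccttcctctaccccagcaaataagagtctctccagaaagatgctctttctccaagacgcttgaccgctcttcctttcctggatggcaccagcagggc
The element, GGGACTTTCC, begins 120 bases before the annotated start. On either strand it was present in 0.191% of 35116 promoter windows of the same 300 bases, and the wider kappaB consensus, which includes it, in 11.3%. Neither was present in these windows of MIR155HG or of C15orf48, which RefSeq calls COXFA4L3. The exact element was read from the MIR3142HG promoter itself, so its presence there was given in advance. A promoter of miR-146b was not looked up. These are matches of letters only, and binding was not measured.

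The libraries held between 28688 and 66345 miRNA reads, and every EVsoft library held more than every EVstiff library. These are totals of miRNA reads and not sequencing depth, which the study aimed to make equal. Why the totals differed was not tested. After all libraries were thinned to the size of the smallest, the log2 change of miR-146a-5p was -1.36 and that of miR-155-5p -0.84. Levels are given as CPM, the reads of a miRNA scaled to a common library total with TMM factors. A count of 3, the limit that 0 reads allow, stood for 44.8 to 108 CPM. This limit and the exact intervals below, binomial or from pooled counts, cover counting error only. The intervals of the edgeR fold changes come from their standard errors, which also include scatter between replicates. The squamous marker miR-205-5p had between 923 and 2078 reads per library. All 5 epithelial and squamous markers had reads, and together they held 5.50% to 6.36% of the reads in EVsoft and 4.64% to 4.89% in EVstiff. Within this list miR-205-5p was at 29760 ± 3540 CPM in EVsoft and 34300 ± 1199 CPM in EVstiff, and the epithelial miR-200c-3p at 27027 ± 1774 and 12586 ± 1531 CPM (SD, n = 3 each). The part of these differences in the results below was not tested. Of 7 blood cell markers 5 were listed, at 23 to 63 reads in total per EVsoft library and 11 to 57 per EVstiff library, mostly of miR-486-5p. Within this list miR-142-3p and miR-223-3p had 1 read each in all 6 libraries together. miR-142-5p had 0 reads in every EVsoft library and 0, 2 and 1 in EVstiff. The stromal and endothelial list had 4 to 15 reads per library.

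Of the 4 miRNAs, 3 were lower in EVstiff than in EVsoft. miR-146a-5p, miR-155-5p and miR-147b passed both thresholds taken from the study (a log2 change beyond 0.58 either way, with adjusted p no higher than 0.05), and miR-146b-5p did not. Adjusted p values come from the quasi-likelihood (QL) test of edgeR with Benjamini-Hochberg adjustment. Among all 105 miRNAs that passed the filter on low counts, 19 passed both thresholds (18.1%), of which 8 were lower in EVstiff (7.62%) and 11 higher (10.5%). All 4 members passed that filter, miR-147b through its EVsoft counts alone, since its EVstiff libraries held 3, 0 and 3 reads. Its call therefore follows a selection on the group where it is high. The log2 fold changes of the 4 members, EVstiff over EVsoft, had a median of -1.11, beside -0.04 over all tested miRNAs. Together they held 3.20% ± 0.0749 (SD, n = 3) of the miRNA reads in EVsoft and 1.26% ± 0.0188 (SD, n = 3) in EVstiff. Every EVstiff library was below every EVsoft library in this share (two-sided exact permutation p = 0.1, and 3 against 3 libraries cannot give a lower one). On average miR-146a-5p made up 85.1% of these reads in EVsoft and 80.0% in EVstiff, so the share mostly repeats its change. The members were chosen with earlier results of these data known, and the median includes miR-147b, so neither figure is an independent test. For 3 of the 4 miRNAs every EVstiff library lay under every EVsoft library in CPM, as was so for 24.8% of all tested miRNAs, and 47.6% had no overlap in either direction.

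**Figure D1:**
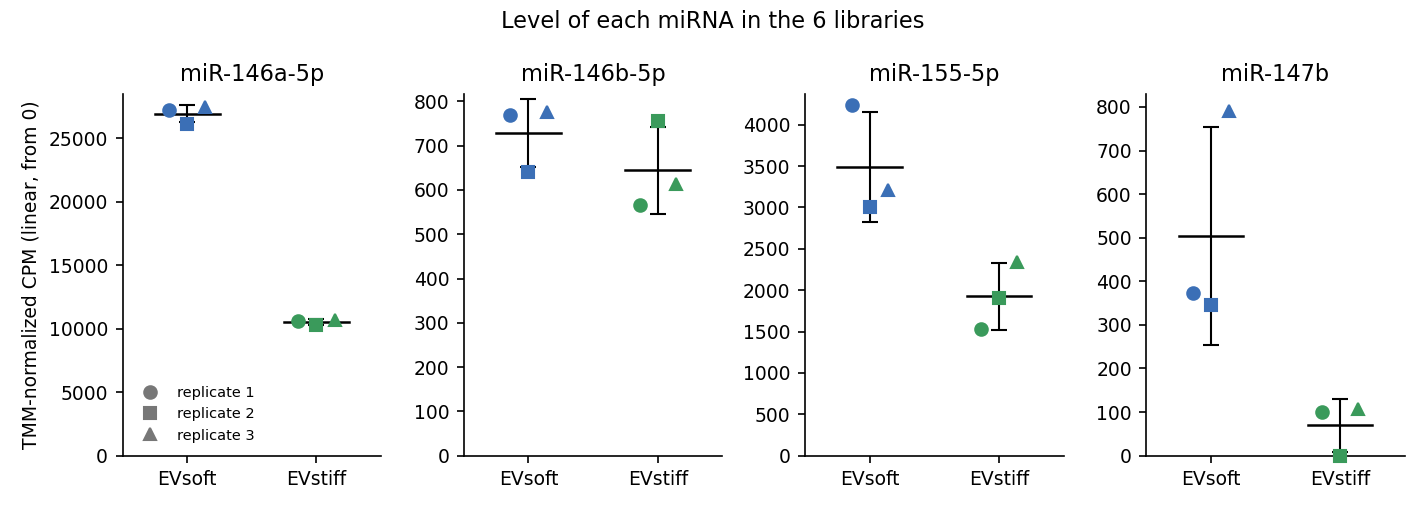
TMM-normalized CPM (linear axis from 0, 1 scale per panel) of the 4 miRNAs, with 1 point per library, a bar at the mean and whiskers of 1 SD (n = 3). The groups are apart for miR-146a-5p, miR-155-5p and miR-147b, and they overlap for miR-146b-5p.

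miR-146a-5p, the feedback repressor of IRAK1 and TRAF6, was the most abundant of the 4. Its reads numbered 1240, 1061 and 1841 in the EVsoft libraries and 318, 286 and 297 in the EVstiff libraries. The EVsoft levels were 27246, 26156 and 27483 CPM, and the EVstiff levels were 10592, 10279 and 10707 CPM. Within a group the libraries lay close together, and the lowest EVsoft library was 2.44 times the highest EVstiff library. The coefficient of variation was 2.62% in EVsoft and 2.10% in EVstiff, no larger than read counting alone gives (2.69% and 5.77%). By number of reads it ranked 12th, 11th and 11th of the 471 names in EVsoft and 22nd, 22nd and 21st in EVstiff. The log2 fold change was -1.36 (SE 0.09, edgeR QL adjusted p = 3.45e-06), which is a level 2.56-fold lower in EVstiff with a 95% interval from 2.22 to 2.95. The other arm of its hairpin, miR-146a-3p, had 1 read, in EVsoft replicate 2.

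miR-146b-5p, which carries the same seed, was present at a much lower level and did not pass the test. It had 35, 26 and 52 reads in EVsoft and 17, 21 and 17 in EVstiff. The levels were 769, 641 and 776 CPM in EVsoft and 566, 755 and 613 CPM in EVstiff. EVstiff replicate 2 lay inside the range of EVsoft, and EVsoft replicate 2 inside that of EVstiff. The log2 fold change was -0.18 (SE 0.28, edgeR QL adjusted p = 0.665), with a 95% interval from -0.82 to 0.45. At these read numbers a level up to 1.76-fold lower in EVstiff lay within the interval. For miR-146a-5p the interval ran from -1.56 to -1.15.

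The ratio of the paralogs is taken within a library, so that the scaling between libraries drops out of it. There were 35.4, 40.8 and 35.4 reads of miR-146a-5p per read of miR-146b-5p in the EVsoft libraries. In the EVstiff libraries there were 18.7, 13.6 and 17.5. Every EVstiff library was below every EVsoft library. The mean ratio was 37.2 ± 3.11 (SD, n = 3) in EVsoft and 16.6 ± 2.65 (SD, n = 3) in EVstiff. On the log2 scale, with 0.5 reads added to each count, the ratio was lower in EVstiff by 1.19 (SE of the difference 0.15), a 2.28-fold change (two-sided exact permutation p = 0.1, the lowest attainable, and 0.12 adjusted over the 6 pairs of members compared). miR-146b-5p made up 2.63% ± 0.204 (SD, n = 3) of the reads of both in EVsoft and 5.78% ± 0.937 (SD, n = 3) in EVstiff. The exact binomial intervals of single libraries were wide, since they rest on 17 to 52 reads of miR-146b-5p. In EVstiff replicate 1 the share was 5.07%, with a 95% interval from 2.98% to 8.00%, which overlaps the interval of EVsoft replicate 1, 1.92% to 3.80%. Reads with the miR-146 seed, summed over both, came to 27691 ± 783 CPM (SD, n = 3) in EVsoft and 11171 ± 143 CPM (SD, n = 3) in EVstiff, a ratio of 2.48.

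**Figure D2:**
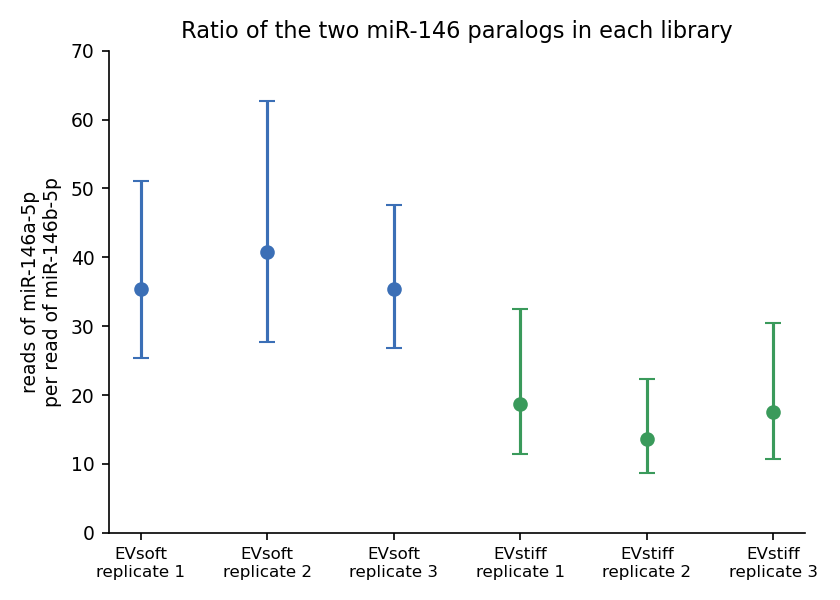
Reads of miR-146a-5p per read of miR-146b-5p in each of the 6 libraries (linear axis from 0), with exact 95% binomial intervals that cover counting error only. The EVsoft libraries lie between 35.4 and 40.8 and the EVstiff libraries between 13.6 and 18.7.

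miR-155-5p, the repressor of SOCS1, was also lower in EVstiff. Its reads numbered 193, 122 and 215 in EVsoft and 46, 53 and 65 in EVstiff. The levels were 4241, 3008 and 3210 CPM in EVsoft and 1532, 1905 and 2343 CPM in EVstiff. The groups did not overlap, and the lowest EVsoft library was 1.28 times the highest EVstiff library. Replicates of miR-155-5p scattered more than reads alone would give, with a coefficient of variation of 19.0% in EVsoft and 21.1% in EVstiff against 7.52% and 13.5% from counting. The log2 fold change was -0.86 (SE 0.22, edgeR QL adjusted p = 0.0179), which is 1.81-fold lower in EVstiff with a 95% interval from 1.29 to 2.54. The call was lost without EVsoft replicate 1 (log2 fold change -0.70, adjusted p = 0.0523) and without EVstiff replicate 1 (-0.73, adjusted p = 0.0636), and over 16 alternatives the adjusted p ran from 6.29e-06 to 0.0636. The ratio of miR-146a-5p to miR-155-5p overlapped between the groups, with a log2 difference of -0.50 (SE 0.22, two-sided exact permutation p = 0.2, adjusted 0.2). The ratio of miR-146b-5p to miR-155-5p was higher in every EVstiff library, by 0.69 on the log2 scale (SE 0.22, two-sided exact permutation p = 0.1, adjusted 0.12).

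miR-147b, the product of the C15orf48 transcript, had the fewest reads of the 4 and the lowest fold change among all tested miRNAs. miR-147b passed the filter on low counts through EVsoft alone, so a fold change below 0 was favored in advance. It had 17, 14 and 53 reads in EVsoft and 3, 0 and 3 in EVstiff. The EVsoft levels were 374, 345 and 791 CPM, with EVsoft replicate 3 far above replicates 1 and 2. The EVstiff levels were 99.9, 0 and 108 CPM, at or under the limit that a count of 0 allows. The groups did not overlap. Set against the summed effective library sizes, the 84 reads in EVsoft and 6 in EVstiff gave a level 7.83-fold lower in EVstiff, with an exact 95% counting interval from 3.45 to 21.9. EVsoft replicate 3 held 53 of the 84 reads, and without it the ratio was 5.14 (interval 2.11 to 15.1), while leaving out each of the other libraries gave 5.28 to 10.6. The coefficient of variation in EVsoft was 49.6%, against 18.9% from counting. The fitted log2 fold change was -2.84 (SE 0.70, edgeR QL adjusted p = 0.0148), a value that depends on the small count edgeR adds to such low counts. Without EVsoft replicate 3 it was -2.30 (adjusted p = 0.0393), and without EVstiff replicate 1 the call was lost (-3.21, adjusted p = 0.0549). Over 14 alternatives its adjusted p ran from 4.85e-05 to 0.0549. The log2 ratio of miR-146a-5p to miR-147b was 5.82 ± 0.616 (SD, n = 3) in EVsoft and 7.36 ± 1.56 (SD, n = 3) in EVstiff. The groups did not overlap in this ratio (two-sided exact permutation p = 0.1, adjusted 0.12), and the 0 count in EVstiff replicate 2 set its upper end.

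**Figure D3:**
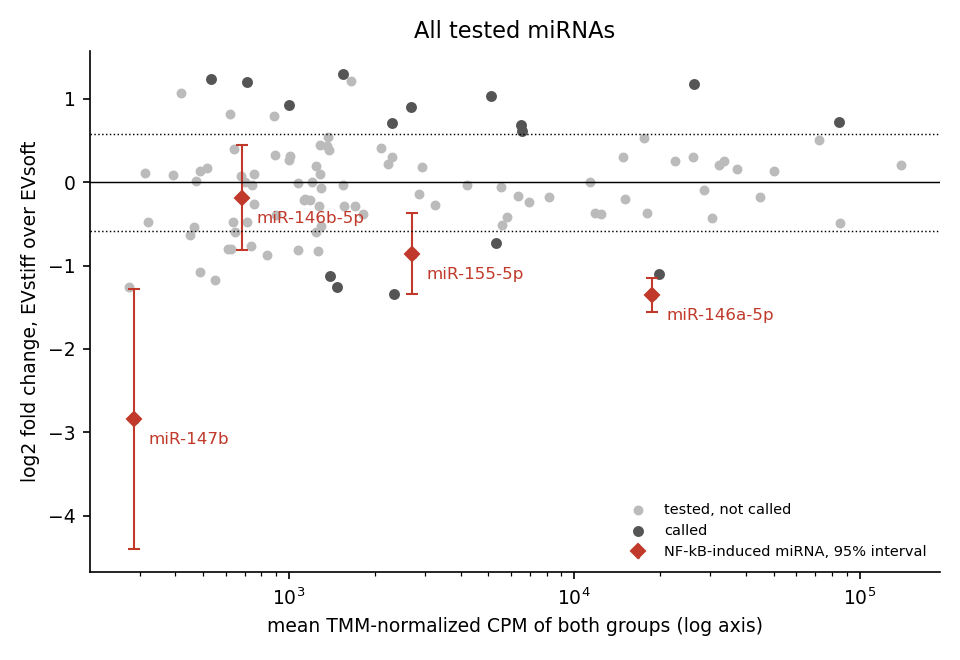
Log2 fold change (EVstiff over EVsoft) of the 105 tested miRNAs against their mean TMM-normalized CPM over both groups (log axis), with the 4 members as red diamonds with 95% intervals and dotted lines at a log2 fold change of 0.58 in both directions. miR-147b is the lowest point and miR-146a-5p the second lowest.

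In reads, the order of the members in both groups was miR-146a-5p, then miR-155-5p, then miR-146b-5p, then miR-147b. The mature lengths were 21 to 24 bases, and adapter ligation and PCR favor some sequences, so this is an order of reads and not of molecules. In EVsoft miR-146b-5p and miR-147b overlapped, since EVsoft replicate 3 had 53 reads of miR-147b and 52 of miR-146b-5p. In EVstiff they were apart in every library. miR-146a-5p made up 85.1% ± 1.63 (SD, n = 3) of the reads of all 4 in EVsoft and 80.0% ± 2.58 (SD, n = 3) in EVstiff, and miR-146b-5p 2.30% ± 0.150 and 4.90% ± 0.805 (SD, n = 3 each). The groups did not overlap in either share (two-sided exact permutation p = 0.1, the lowest attainable). The share of miR-155-5p was 11.0% ± 1.75 in EVsoft and 14.6% ± 2.52 in EVstiff (SD, n = 3 each), with overlap (two-sided exact permutation p = 0.2).

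The fall of these miRNAs was measured against the other miRNAs of the same library. Under TMM, RLE and upper quartile factors and under library size alone, the log2 fold change of miR-146a-5p stayed between -1.43 and -1.30 and that of miR-155-5p between -0.93 and -0.79. When every library was given the same size, so that raw reads were compared, the median over all tested miRNAs moved to -0.89. miR-146a-5p was then at -2.20 and miR-155-5p at -1.69. Relative to the median of all tested miRNAs, miR-146a-5p lay between -1.32 and -1.31 and miR-155-5p between -0.82 and -0.80 under these 5 scalings. A scaling shifts all miRNAs by nearly the same amount, so these distances hold by construction and are no sign of stability. miR-146b-5p lay between -0.15 and -0.14 relative to that median, and was called under none of the 5 (adjusted p = 0.0565 with the same size and 0.516 or more with the other scalings, edgeR QL test). Over 16 alternatives its adjusted p ran from 0.0565 to 0.889.

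**Figure D4:**
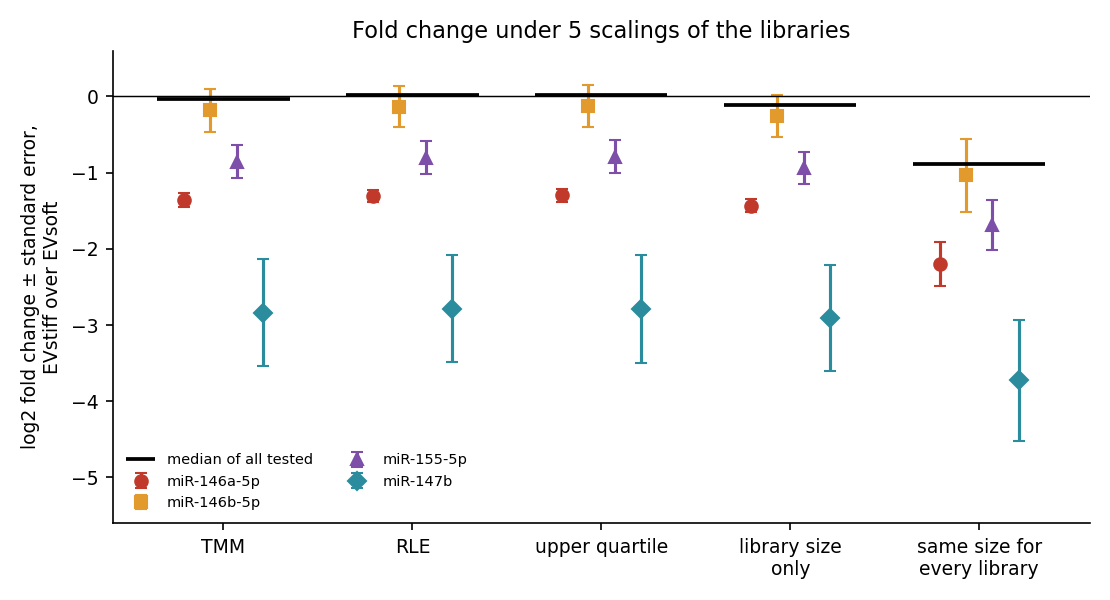
Log2 fold change (EVstiff over EVsoft, whiskers of 1 standard error) of the 4 members under 5 scalings, with a black line at the median of all tested miRNAs. Giving every library the same size moved the median to -0.89, and the members moved down with it.

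The profiles closest to each member over the 6 libraries were found by the root mean square difference of centred log2 CPM. For miR-146a-5p the closest was miR-200c-3p at 0.158, followed by miR-181a-5p at 0.222 and miR-200a-3p at 0.307, beside a median of 0.702 over the 104 other miRNAs. The miR-200 members are epithelial miRNAs that repress ZEB transcription factors, and miR-181a is best known from lymphocyte development. For miR-155-5p they were miR-200c-3p (0.223), miR-200a-3p (0.243) and miR-29a-3p (0.252). For miR-147b they were miR-584-5p (0.736), miR-181a-5p (0.750) and miR-20a-5p (0.765). miR-146b-5p had other neighbors, miR-22-3p (0.116), miR-185-5p (0.145) and miR-26a-5p (0.153), of which none was called. Near miR-155-5p, miR-29a-3p was not called either (edgeR QL adjusted p = 0.172). Near miR-147b, the same held for miR-584-5p (adjusted p = 0.0571) and for miR-20a-5p (adjusted p = 0.132). The remaining neighbors of the called members passed both thresholds. The miR-146 paralogs were 0.609 apart, and miR-146a-5p and miR-155-5p were 0.336 apart. The median distance to the 104 others was 0.378 from miR-146b-5p, 0.530 from miR-155-5p and 1.28 from miR-147b. These distances include the difference between the groups, so miRNAs of like fold change lie close by construction.

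A wider list of 22 miRNAs reported to respond to, or act on, NF-kB, Toll-like receptor or cytokine signaling was examined next. Of these 19 were in the table and 11 were tested, and 1 was called lower and 0 higher in EVstiff, beside 7.62% lower and 10.5% higher over all tested miRNAs. The count called lower was thus near that background. Their median log2 fold change was -0.54, and 10 of the 11 had a value below 0, as did 57 of all 105 tested. The one called was miR-125a-5p, which represses the NF-kB regulator A20. It had 96, 196 and 208 reads in EVsoft and 36, 36 and 40 in EVstiff, a log2 fold change of -1.35 (SE 0.30, edgeR QL adjusted p = 0.00849). Without EVstiff replicate 1 it was not called at a nearly equal log2 fold change of -1.31 (adjusted p = 0.0612, the highest of 16 alternatives, of which the lowest was 3.04e-08).

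miR-21-5p, an abundant tumor miRNA that inflammation raises, and let-7i-5p, which targets a Toll-like receptor, passed the adjusted p alone. Their log2 fold changes of -0.49 (adjusted p = 0.00395) and -0.42 (adjusted p = 0.00695, edgeR QL test) were under the fold threshold. With miR-125a-5p, 3 of the 11 were lower by the adjusted p alone, beside 11.4% of all tested miRNAs. miR-222-3p at -0.37, miR-221-3p at -0.18, miR-20a-5p at -0.81 and miR-181b-5p at -0.59, which acts on the nuclear import of NF-kB, did not pass (adjusted p between 0.0626 and 0.427). miR-17-5p at -1.08, miR-31-5p at -0.80 and miR-16-5p at -0.54 did not pass either (edgeR QL adjusted p = 0.0882, 0.141 and 0.440). miR-181b-5p was called lower without EVstiff replicate 2 and with the same size for every library. miR-203a-3p, a skin miRNA that represses SOCS3, was the exception in sign at 1.21 (SE 0.55, adjusted p = 0.127), and its reads in EVsoft were 61, 6 and 96. It was called higher without EVsoft replicate 1, without EVsoft replicate 2, and with no filter on low counts. NF-kB-induced miR-9-5p had 2, 4 and 1 reads in EVsoft and 0 in every EVstiff library. miR-187-3p, induced by interleukin-10, had 7, 9 and 1 reads in EVsoft and 0 in every EVstiff library. miR-132-3p, which inflammation raises through CREB, had 2, 2 and 15 reads in EVsoft and 0, 0 and 3 in EVstiff. miR-125b-5p, a relative of miR-125a-5p, had 3, 6 and 6 reads in EVsoft and 0, 1 and 4 in EVstiff. miR-193b-3p had 1, 0 and 1 reads in EVsoft and 2, 0 and 0 in EVstiff. miR-223-3p and miR-199a-5p each had 1 read, in EVsoft replicate 3, and miR-199a-3p, counted together with miR-199b-3p, had 1 in EVsoft replicate 2 and 1 in EVsoft replicate 3. These 8 were too low to be tested. When every library was given the same size, 10 of the 11 were called lower, as were 57 of all 105 tested miRNAs (54.3%). Raw reads were compared there, and every EVsoft library held more miRNA reads than every EVstiff library.

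**Figure D5:**
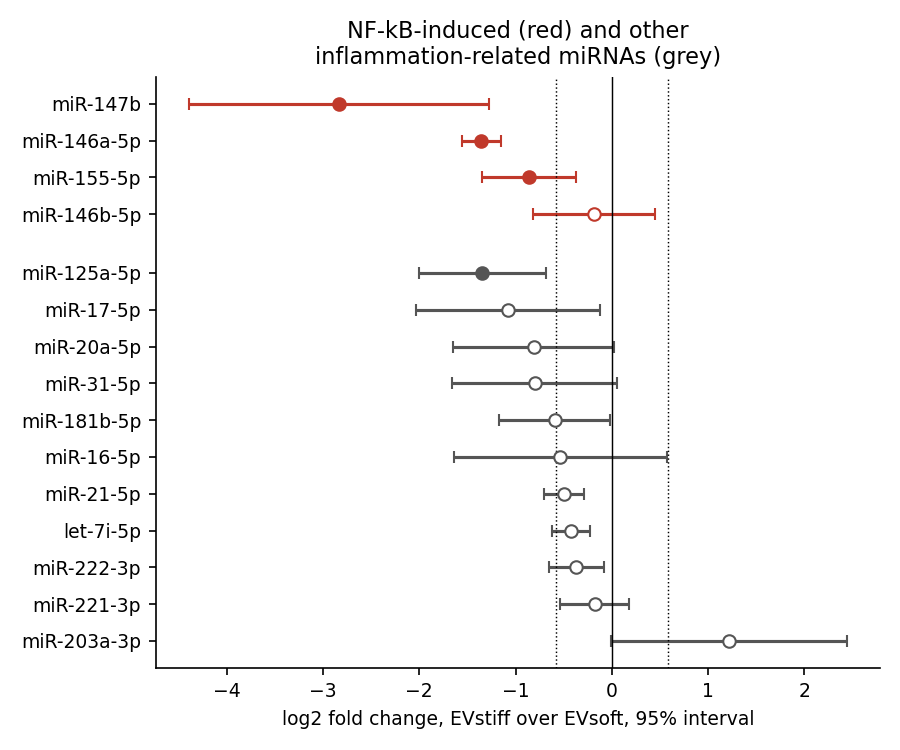
Log2 fold change (EVstiff over EVsoft) with 95% intervals of the 4 members (red) and of the 11 tested miRNAs of the wider list (grey), filled where called, with dotted lines at 0.58 in both directions. Of the wider list, 1 point is filled, miR-125a-5p at -1.35.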

How the data were processed

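Small RNA of EVs was sequenced in 3 EVsoft and 3 EVstiff libraries. The values are the raw counts deposited by the authors, who ran exceRpt for quality control and took miRNA features from RefSeq. The submitters' processing notes name hg38, and the aligner is not given in the sources used here. The 4 members, the wider list and the tests were chosen with earlier results of these data known.

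The analysis ran edgeR 4.0.16 under R 4.3.3 (filterByExpr, TMM, glmQLFit and glmQLFTest, Benjamini-Hochberg adjustment), with DESeq2 1.42.0 and limma 3.58.1 as alternatives. The miRNA methods of the study name no test, its fold and p thresholds were used, and its TPM values were not. Standard errors (SE) of edgeR log2 fold changes are their absolute value divided by the square root of F. Those of ratio differences come from the variances of both groups (n = 3 each). Ratios of members used raw reads plus 0.5 and exact permutation tests (scipy 1.17.1). The named miRNAs are the members, the other arms of their hairpins, the 3 nearest profiles of each and the wider list. Of the latter, the one called and the other 6 of highest mean level were given values, and miR-20a-5p also appears as a nearest profile. The remaining tested ones and the 8 listed but untested were added after their values were seen. Replicate libraries differed by more than sampling noise (chi-square per degree of freedom at least 3.40). The main fits did not pair libraries by replicate number. Whether same-numbered libraries shared a culture experiment is not given in the sources used here. The edgeR procedure was run on 20 simulated data sets with 30 changed miRNAs each. Every miRNA had the same set dispersion and changes were of a single size, so members whose replicates scatter more were not covered.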

Additional observations from a re-analysis of the deposited data

How the results depend on the processing

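The alternatives were other tests, scalings and filters, thinning of reads, a block for the replicate number, and fits without 1 library. In the 16 alternatives miR-146a-5p was called lower, from -2.20 to -1.30, and miR-146b-5p was not called. The log2 ratio of miR-146a-5p to miR-146b-5p changed by -1.28 to -1.05 over 10 alternatives. With each library left out, the log2 fold change ranged from -1.01 to -0.70 for miR-155-5p (4 of 6 calls kept), from -3.25 to -2.29 for miR-147b (5 of 6 kept). The number of miRNAs called ranged from 13 to 19, with 19 over all libraries. The pooled ratio of miR-147b ranged from 5.14 to 10.6, in an alternative chosen after seeing the data. With the same size for every library 57 miRNAs were called, all lower, and with library size alone 8 were higher and 11 lower, against 11 and 8. miR-147b was not tested with at least 10 counts in every library, nor after thinning, where fewer reads were left. Each fit without 1 library applied the filter on low counts again, and miR-147b passed it through its EVsoft counts. A fold change below 0 was thus favored in each, and its calls kept are no independent support.

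Libraries share replicate numbers between the groups. Deviations from the group means correlated across miRNAs at -0.13, 0.13 and -0.03 between same-numbered libraries, and at -0.13 to 0.20 between different-numbered ones. With 3 libraries per group and few reads for many miRNAs, this cannot show whether libraries were paired. With the replicate block 16 miRNAs were called and no member changed its call, with log2 fold changes of -1.36 for miR-146a-5p, -0.18 for miR-146b-5p, -0.85 for miR-155-5p and -2.80 for miR-147b, and -1.19 for the paralog ratio.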
